A study of Mus musculus with 24 samples.

Results

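Reelin and the proteins that receive its signal were followed through the nuclear transcriptome and the open chromatin of the mouse ventral hippocampus. The 4 genes, Reln, Vldlr, Lrp8 and Dab1, were chosen by name from the 33902 symbols of a count table, and all 4 were found in it. The table held unique molecular counts from single-nucleus RNA-seq, summed per cell type and library, for 17 cell types in 4 libraries. A second table held accessibility counts (ATAC-seq) over 300819 peaks, summed in the same way for 15 cell types in 4 libraries. The libraries came from adult male mice of 2 inbred strains, C57BL/6J (B6) and DBA/2J (D2), aged 10 to 16 weeks, with 2 replicates per strain and assay and tissue from about 2 animals pooled in each replicate. No treatment or transgene was applied, so strain was the one labelled difference between the groups of animals. The reads of each strain were aligned to a different sequence, so strain and alignment cannot be told apart. Nuclei were isolated or sorted before capture. The columns of the tables number the libraries 2 and 3 within each strain, and the libraries are named so below.

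Reelin is a large secreted glycoprotein. It binds the very-low-density lipoprotein receptor VLDLR and the apolipoprotein E receptor 2 (encoded by Lrp8), and bound receptors lead Src-family kinases to phosphorylate the cytoplasmic adaptor DAB1, which passes the signal on to the cytoskeleton. During development the ligand is made by Cajal-Retzius cells at the surface of the cortex and hippocampus and directs the layering of migrating neurons. In the adult forebrain it is made mostly by GABAergic interneurons, and the pathway acts on synapses and dendrites.

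Counts per column ran from 139713 to 11352265 for RNA and from 278059 to 27815541 for ATAC, so the rarer cell types carry the larger error. Values are given as counts per 1000000 of the column's total (CPM), which include intronic reads. The names of the cell types were checked against lists of marker genes, and the summed level of most lists was highest in a type of that name. The exceptions were the Lamp5 list, higher on average in CR-CR (333 to 1298 CPM over the libraries) than in Inh-Lamp5 (521 to 961 CPM), and the dentate gyrus list, higher on average in CR-CR (201 to 597 CPM) than in Exc-DG (279.6 to 377 CPM). In these lists Ndnf and Prox1 peaked in CR-CR while Lamp5, Sv2c, C1ql2 and Dsp peaked in the named type, and Lhx6 of the MGE list peaked in Inh-Lamp5. Markers of Cajal-Retzius cells therefore identify CR-CR, those of oligodendrocytes NN-ODC, those of oligodendrocyte precursors NN-OPC, those of microglia NN-MGC and those of vascular and leptomeningeal cells NN-VLMC, while Exc and Inh mark excitatory and inhibitory neurons.

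All coordinates are of GRCm38. Reln lies on the minus strand at chr5:21884454-22344702, Vldlr on the plus strand at chr19:27216484-27254231, Lrp8 on the plus strand at chr4:107802261-107876840 and Dab1 on the plus strand at chr4:103619359-104744844. Below are the 250 bases before an annotated start of Reln and of Vldlr, shown because accessibility over these starts was highest in the cell type with the most transcript among those measured in both assays, from RefSeq (GRCm38.p6) and read 5′ to 3′ on the strand of the gene. With them are 300 bases at the centre of 3 intronic peaks that differed between the strains in the most cell types, on the plus strand. Accessibility over the Dab1 start was likewise highest in the type with the most Dab1 transcript, Exc-Cdh12, but its window is not shown. Capitals mark a GC box (GGGCGG, or CCGCCC for the other strand), an AP-1 motif (TGANTCA, which matches itself on the other strand) or an E-box (CAGATG, or CATCTG for the other strand). The cyclic AMP response element TGACGTCA was searched as well and occurred in none of the 5.
Reln promoter, chr5:22344706-22344955, minus strand: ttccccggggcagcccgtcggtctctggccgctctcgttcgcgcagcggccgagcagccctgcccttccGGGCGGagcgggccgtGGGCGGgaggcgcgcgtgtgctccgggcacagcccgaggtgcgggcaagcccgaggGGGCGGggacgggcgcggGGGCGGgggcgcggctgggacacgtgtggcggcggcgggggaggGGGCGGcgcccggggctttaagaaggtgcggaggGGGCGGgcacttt
Vldlr promoter, chr19:27216234-27216483, plus strand: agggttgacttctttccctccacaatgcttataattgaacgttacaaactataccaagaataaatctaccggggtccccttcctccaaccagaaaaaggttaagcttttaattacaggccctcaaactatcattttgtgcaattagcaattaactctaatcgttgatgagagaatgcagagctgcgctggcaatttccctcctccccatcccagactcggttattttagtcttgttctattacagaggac
Reln intron 1, chr5:22306925-22307224, plus strand: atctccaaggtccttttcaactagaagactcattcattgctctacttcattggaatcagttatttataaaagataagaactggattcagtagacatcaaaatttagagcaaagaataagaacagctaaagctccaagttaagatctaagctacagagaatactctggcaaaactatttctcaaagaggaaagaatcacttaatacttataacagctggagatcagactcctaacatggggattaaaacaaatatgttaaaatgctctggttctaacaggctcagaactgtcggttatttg
Dab1 intron 3, chr4:104307782-104308081, plus strand: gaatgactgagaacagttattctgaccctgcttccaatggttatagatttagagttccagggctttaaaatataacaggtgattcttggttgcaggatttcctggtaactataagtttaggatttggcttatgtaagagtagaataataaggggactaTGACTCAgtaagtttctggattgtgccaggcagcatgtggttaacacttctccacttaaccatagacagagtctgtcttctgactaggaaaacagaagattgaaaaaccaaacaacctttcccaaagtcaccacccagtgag
Dab1 intron 1, chr4:103793831-103794130, plus strand: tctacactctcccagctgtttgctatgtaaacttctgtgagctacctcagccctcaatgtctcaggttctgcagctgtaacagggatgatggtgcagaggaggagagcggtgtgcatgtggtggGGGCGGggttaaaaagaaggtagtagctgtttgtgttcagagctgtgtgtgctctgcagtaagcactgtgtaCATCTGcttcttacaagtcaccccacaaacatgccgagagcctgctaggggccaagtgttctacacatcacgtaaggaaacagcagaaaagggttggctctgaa
The Reln window was 80% G and C, held 37 CpG dinucleotides and carried 6 GC boxes, whereas the Vldlr window was 41.6% G and C, held 5 CpG and none of the 4 motifs. Over 32851 such promoter windows the median was 52.4% G and C with 6 CpG, and 32.7% held a GC box. In G and C content the windows of ligand and receptor thus lay on either side of the median, while in CpG the Vldlr window was near it. The Vldlr window lies at the edge of its peak, whose centre is 1.22 kb past the gene start, so it need not describe the most open part. The Reln intronic window held none of the motifs, that in Dab1 intron 3 an AP-1 motif, and that in Dab1 intron 1 a GC box and an E-box. Of 244837 peak centres of the same length, 14.1% held the AP-1 motif, 8.34% the GC box, 31.7% the E-box and 0.377% the cyclic AMP response element. A match gives the letters alone and says nothing of what binds there.

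Among the cell types, the ligand was concentrated in Cajal-Retzius cells and inhibitory neurons. In CR-CR, Reln stood at 4298 and 4806 CPM in B6 libraries 2 and 3 and at 2784 and 1226 CPM in D2 libraries 2 and 3. In Inh-Lamp5 it was at 957, 1017, 1228 and 1583 CPM in the same order. CR-CR had the higher mean, 3278 against 1196 CPM, yet the lowest CR-CR library fell below the highest of Inh-Lamp5. Below them came Inh-CGE, with 608, 452, 595 and 506 CPM, and Inh-MGE, with 292, 213, 258 and 241 CPM. From Inh-Lamp5 to Inh-CGE, to Inh-MGE and on to Exc-CA1-Camk2d, no library of one type overlapped the next.

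Excitatory neurons held far less of the ligand. Exc-CA1-Camk2d averaged 66.4 CPM (35.8 to 97.5) and Exc-CA1-Fras1 51.4 CPM (34.1 to 66.8), and these neighbours overlapped. The remaining 11 types lay between 0.682 and 44.7 CPM in single libraries, and their ranges ran into one another. The inhibitory types together held 51.9% and 45.8% of all Reln counts of B6 libraries 2 and 3 and 77.6% and 81.1% of those of D2, whereas CR-CR held 34.4% and 37.1% for B6 and 8.82% and 5.79% for D2. The latter rests on 171 and 138 CR-CR nuclei in B6 and 45 and 46 in D2, and how many nuclei of a type were recovered depends on dissection and sorting as well as on the tissue.

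**Figure D1:**
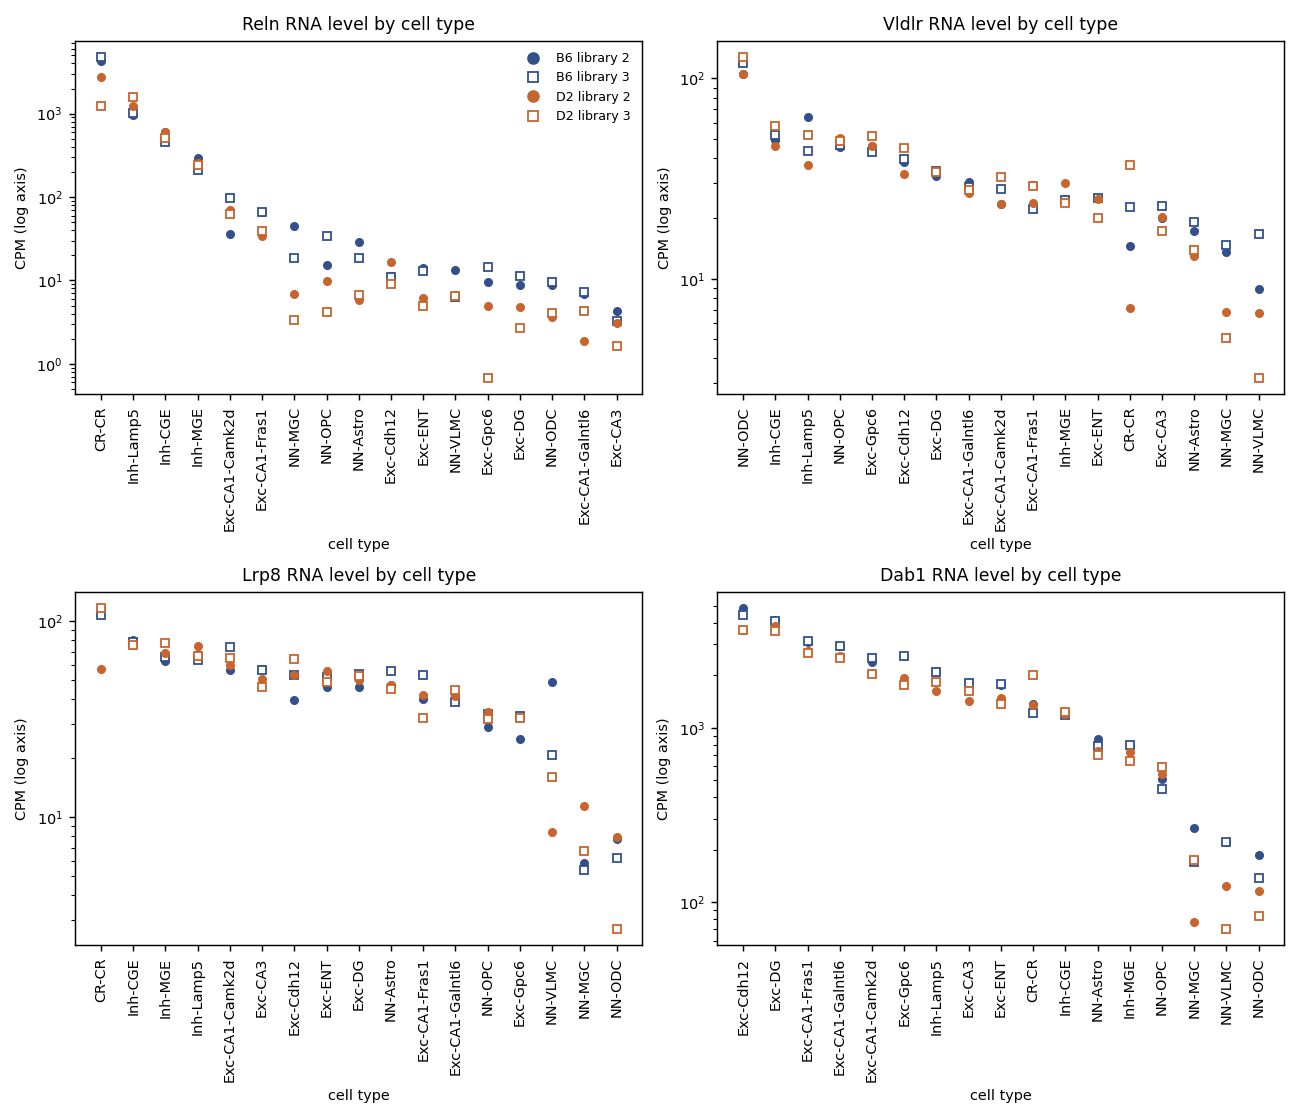
Level of Reln, Vldlr, Lrp8 and Dab1 in each cell type, in CPM on a log axis, with 1 point per library, coloured by strain and shaped by library number. Reln peaks in CR-CR and the 3 inhibitory types, Vldlr in NN-ODC at 105 to 128 CPM, Lrp8 in CR-CR and inhibitory neurons, and Dab1 in Exc-Cdh12 and Exc-DG, where the lowest library is at 3602 CPM.

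The receptors differed most in oligodendrocytes. Vldlr was highest in NN-ODC, the oligodendrocytes, at 105 and 119 CPM in B6 and 105 and 128 CPM in D2. That was above every library of Inh-CGE, the next type, whose mean was 51.3 CPM, and the types below it (Inh-Lamp5 at 49.0 CPM, NN-OPC at 47.7, Exc-Gpc6 at 46.7) overlapped their neighbours. The lowest Vldlr means were in NN-Astro (15.9 CPM), NN-MGC (10.1 CPM) and NN-VLMC (8.87 CPM).

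Lrp8 was lowest where Vldlr was highest. Its mean was 6.13 CPM in NN-ODC, from 15, 16, 11 and 4 counts in the 4 libraries, and 7.33 CPM in NN-MGC. It was highest in CR-CR, with 117, 108, 57.3 and 117 CPM, followed by Inh-CGE at 77.7 CPM, Inh-MGE at 68.8, Inh-Lamp5 at 68.2 and Exc-CA1-Camk2d at 63.7. Neighbours in this order overlapped, CR-CR and Inh-CGE through D2 library 2 of CR-CR alone, with 8 counts. On a scale of CPM per kilobase of gene, the ratio of Lrp8 to Vldlr was 2.48 in CR-CR (1.60 to 4.05 over the libraries) and 0.0271 in NN-ODC (0.0107 to 0.0381). It was 1.56 in NN-Astro, 1.34 in Inh-MGE, 0.757 in Exc-DG and 0.341 in NN-OPC. Whether counts grow in proportion to gene length was not tested, so the ratio is read across cell types and does not rank the receptors. Reads of Lrp8 could be mixed with those of its antisense transcript Lrp8os2, which held 4555 counts in B6 and 3663 in D2 beside 5446 and 4676 of Lrp8, because no strand setting of the counting was given in the sources used here.

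Dab1 was highest in excitatory neurons. It reached 4848 and 4395 CPM in B6 and 3641 and 3608 CPM in D2 in Exc-Cdh12, and 4160, 4063, 3827 and 3602 CPM in Exc-DG. These neighbours overlapped, and both lay above all other types, led by Exc-CA1-Fras1 at 2921 CPM and Exc-CA1-Galntl6 at 2740 CPM. Among inhibitory types the mean was 1906 CPM in Inh-Lamp5, 1201 CPM in Inh-CGE and 738 CPM in Inh-MGE. It was 767 CPM in NN-Astro and 524 CPM in NN-OPC, and lowest in NN-MGC (173 CPM), NN-VLMC (160 CPM) and NN-ODC (131 CPM). Among the cell types, the oligodendrocyte column therefore combined the highest Vldlr with the lowest Dab1, at 3.03 and 0.116 CPM per kilobase of gene, while Exc-DG held 3.48 CPM per kilobase of Dab1. Before division by length, NN-ODC held Vldlr at 105 to 128 CPM and Dab1 at 83.6 to 186 CPM. CR-CR held the ligand at 7.12 CPM per kilobase beside Lrp8 at 1.34, Dab1 at 1.32 and Vldlr at 0.540. In CPM, Dab1 stood at 1222 to 2002 there and Lrp8 at 57.3 to 117, so the order of genes depends on the scale.

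The profiles of the 4 genes over the 17 cell types were compared with those of 13305 symbols by Pearson's correlation of log2(CPM + 1). Nearest to Reln was Gm10475 (r = 0.988), an antisense gene inside Reln with 1452 counts in B6 and 910 in D2 beside 12252 and 7845 of Reln, whose reads cannot be told apart from those of Reln without the strand, and Eprs (0.870), Cwc27 (0.855) and Pola1 (0.842) were also among the nearest. Among the nearest to Vldlr were Gm35438.1 (0.895), Mapt (0.881), which encodes the microtubule-binding protein tau, Map7 (0.859) and Atrn (0.841). Lrp8os2 led for Lrp8 (0.970), ahead of Fbf1 (0.933), Guf1 (0.931), Sgip1 (0.920) and Mettl26 (0.908), and Ttc8 led for Dab1 (0.953), ahead of Gm43140 and 4930422M22Rik (both 0.937), Fbxo41 (0.931) and Kalrn (0.930). Among the 4 genes themselves, Lrp8 and Dab1 were the most alike (0.729) and Reln and Lrp8 came next (0.527), whereas Vldlr correlated with the others at -0.05 to 0.17. These correlations describe 17 columns that share their libraries and differ in depth.

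Between the strains, Reln had the largest differences of the 4. D2 was set against B6 in each cell type with edgeR's quasi-likelihood test, adjusted by the Benjamini-Hochberg method over all symbols tested in that type at a threshold of 0.05, and differences are log2 of D2 over B6. Reln was called lower in D2 in 8 of the 16 types tested and higher in 1, with 13 of 16 differences negative and a median of -1.18. Over all symbols and the 17 types, 9.25% of 219518 tests were called lower and 12.9% higher (in the 8 types with a fall of Reln, from 5.12% lower in NN-MGC to 14.1% in Exc-CA1-Galntl6), and the median difference of all symbols lay between 0.01 and 0.06 in each type. These shares include symbols counted in 1 strain alone. Among symbols with counts in both strains, lower calls outnumbered higher ones in every type, in Exc-DG with 2152 lower and 1845 higher of 15759. With 2 libraries per strain, p-values measure the spread between these libraries alone, and since the counts are sums over nuclei, fewer nuclei making a transcript and less of it per nucleus cannot be told apart.

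The called falls lay in types where Reln was low. In Exc-CA1-Fras1 Reln was at 66.8 and 65.8 CPM in B6 and at 34.1 and 38.8 CPM in D2, a difference of -0.94 (SE 0.13, edgeR adjusted p = 2.37e-06). The granule cells of the dentate gyrus, Exc-DG, had 8.70 and 11.4 CPM in B6 against 4.77 and 2.66 CPM in D2 (-1.43, SE 0.25, edgeR adjusted p = 0.000377). In both types every D2 library lay below every B6 library. Reln separated the strains completely, in either direction, in 12 cell types and overlapped in 5. Among the former were CR-CR, NN-ODC and Exc-CA3, where edgeR made no call. The share of all symbols that separate is not given here, so separation adds no support to a call. In Exc-ENT the levels were 14.0 and 12.9 CPM against 6.23 and 5.0 CPM (-1.28, SE 0.27, edgeR adjusted p = 0.000259). In NN-Astro, which holds the astrocyte markers, they were 28.9 and 18.6 CPM against 5.90 and 6.66 CPM (-1.82, SE 0.27, edgeR adjusted p = 7.41e-07). These 4 calls were made under each of the 12 alternative settings tried.

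The other 4 called falls rested on fewer counts and were each lost under 2 or more settings. They were Exc-CA1-Galntl6 (-1.26, SE 0.31, edgeR adjusted p = 0.00461), Exc-Gpc6 (-1.92, SE 0.46, edgeR adjusted p = 0.00156), NN-MGC (-2.52, SE 0.64, edgeR adjusted p = 0.0160) and NN-OPC (-1.87, SE 0.38, edgeR adjusted p = 3.17e-05). In NN-MGC, for example, the libraries held 23 and 14 counts in B6 against 3 and 2 in D2, and in Exc-Gpc6 18 and 35 against 12 and 1. DESeq2 called 5 falls in place of 8. NN-ODC (-1.16, edgeR adjusted p = 0.073) and Exc-CA3 (-0.67, edgeR adjusted p = 0.20) did not pass. In Exc-CA1-Camk2d the difference was -0.07 with a 95% interval of -0.67 to 0.53, and B6 library 2 (35.8 CPM) and library 3 (97.5 CPM) lay on either side of D2: without the former it was -0.59 and called, and without the latter 0.87 and called.

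Markers of the types rich in Reln were measured in the same 8 columns. For 5 Cajal-Retzius genes 12 tests could be made there: 1 was called lower in D2 (Ebf3 in NN-MGC, -1.85) and 5 higher. All 5 were Trp73 (2.28 to 3.67) on few counts, in Exc-DG 4 and 4 in B6 and 45 and 38 in D2. Trp73 was also called higher in Exc-CA1-Camk2d (3.63) and Exc-CA3 (2.18), where Reln was not called. The summed level of those 5 genes ran from 2.01 to 99.2 CPM in B6 and from 4.51 to 41.4 CPM in D2. Single genes could carry that sum. In B6 library 2, Cacna2d2 gave 27.7 of 28.4 CPM in Exc-CA1-Fras1 and Ebf3 gave 75.8 of 99.2 CPM in NN-MGC. For the interneuron genes Gad1, Gad2 and Slc32a1, 0 of 11 tests were called. For the excitatory markers Slc17a7, a vesicular glutamate transporter, and Neurod2, 1 of 16 tests was called lower (Slc17a7 in NN-Astro, -0.48, edgeR adjusted p = 0.00975) and 1 higher (Neurod2 in Exc-ENT, 0.41, edgeR adjusted p = 0.0473). Summed lists of markers of other cell types moved both ways in these columns. In NN-Astro, 6 of 12 such lists were lower in both D2 libraries than in both of B6, among them MGE (61.0 to 66.6 CPM in B6, 34.9 to 46.6 CPM in D2) and CA1 (71.4 to 77.2 CPM in B6, 43.4 to 60.1 CPM in D2), and 3 were higher. The counts of lower and higher lists were 6 and 3 of 12 in NN-MGC and 3 and 3 of 12 in NN-OPC, where CA1 stood at 178 to 193 CPM in B6 and 107 to 119 CPM in D2. They were 8 and 2 of 12 in Exc-DG, 2 and 4 of 12 in Exc-CA1-Fras1 and 5 and 5 of 12 in Exc-CA1-Galntl6. In Exc-ENT they were 6 and 4 of 13 and in Exc-Gpc6 7 and 3 of 13. The share of all symbols that separate in this way is not given here, so these counts cannot be read as particular to the lists. Grin2a, a neuronal glutamate receptor gene, was also called lower in NN-Astro (-0.91), NN-MGC (-0.99) and NN-OPC (-0.77). It was called lower as well in NN-ODC (-1.03) and NN-VLMC (-0.82), where Reln was not called or not tested, and in excitatory types such as Exc-DG (-0.24). Slc17a7 was not called in NN-MGC (-0.56) or NN-OPC (-0.35). The part that RNA of other nuclei has in the Reln differences was not tested.

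**Figure D2:**
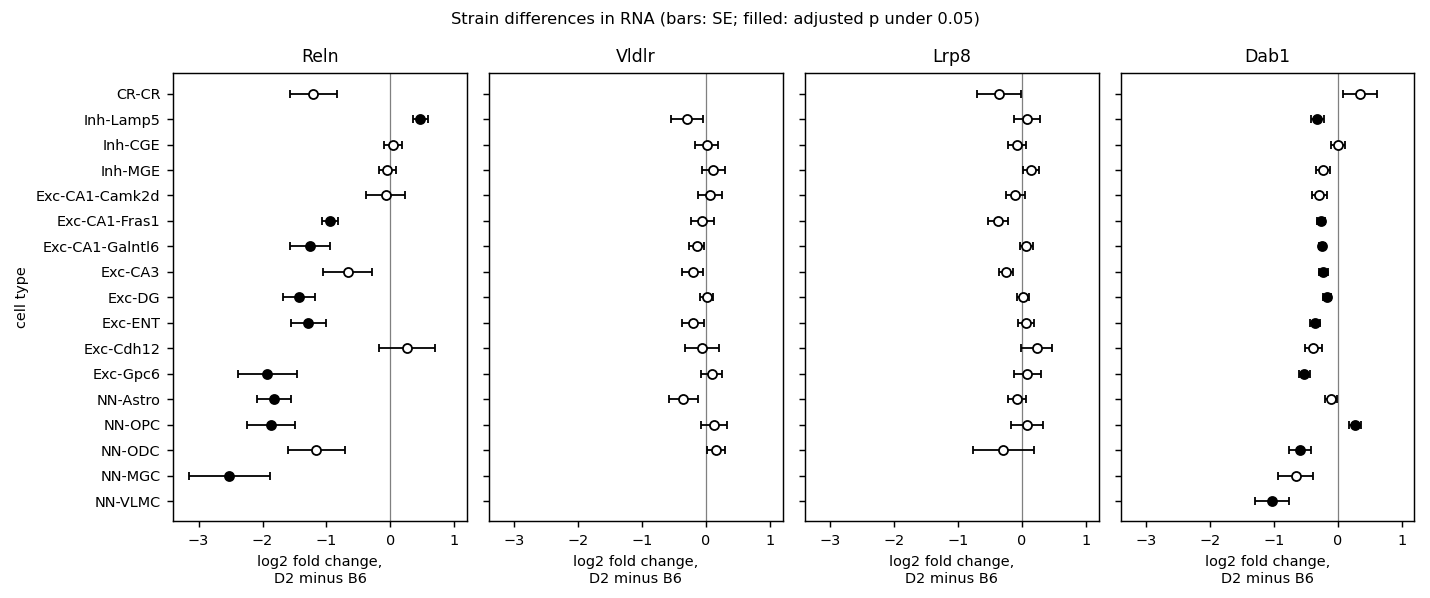
Log2 fold change of D2 over B6 for Reln, Vldlr, Lrp8 and Dab1 in each cell type tested, with bars of 1 SE, filled where the edgeR adjusted p is under 0.05. Reln runs from -2.52 to 0.47 and Dab1 from -1.03 to 0.35, and the receptors stay between -0.38 and 0.23 with 0 calls.

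Inhibitory neurons, the class with the largest share of Reln counts, had 0 called falls. In Inh-Lamp5 both D2 libraries (1228 and 1583 CPM) lay above both B6 libraries (957 and 1017 CPM), a difference of 0.47 (SE 0.12, edgeR adjusted p = 0.00493) or 1.38-fold. The call was lost without D2 library 3 (edgeR adjusted p = 0.21, smallest difference over all settings 0.29). In Inh-CGE the strains overlapped and differed by 0.04 (95% interval -0.23 to 0.31), and in Inh-MGE by -0.05 (-0.30 to 0.21). Whole-library Reln was 111 CPM in each B6 library and 84.6 and 79.8 CPM in D2.

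In CR-CR the 2 B6 libraries averaged 4552 ± 359 CPM of Reln (SD, n = 2) and the 2 D2 libraries 2005 ± 1102 CPM. The groups did not overlap, and the difference of -1.20 (SE 0.37, 95% interval -1.92 to -0.49) had an edgeR adjusted p of 0.0761, in a column where 2.09% of symbols were called lower. It was called by DESeq2 (-1.25, adjusted p = 0.0114) but not by edgeR in the main setting. Over the 4 fits without 1 library the difference ran from -1.95 to -0.72. Both ends came from leaving out a D2 library (-1.95 without library 2, -0.72 without library 3), which leaves 1 library for that strain. The Cajal-Retzius markers were also lower in D2 as a sum, though not each of them. Trp73 was called lower (-1.48, edgeR adjusted p = 0.0214). Lhx1 differed by -0.06 and was highest in D2 library 2, at 250.5 CPM. The summed level of the markers was 1307 and 1371 CPM in B6 and 1038 and 369.5 CPM in D2, so that Reln was 3.29 and 3.51 times that sum in B6 and 2.68 and 3.32 times in D2. Dab1 did not follow: it was 1374 and 1222 CPM in B6 and 1353 and 2002 CPM in D2 (0.35, edgeR adjusted p = 0.59). D2 library 3 of CR-CR thus had the fewest Reln counts (199), the lowest Cajal-Retzius markers and the most Dab1. Of 12 lists of other cell types, 4 were higher in both D2 libraries of CR-CR than in both of B6: astrocytes (145 to 183 CPM in B6, 314 to 394 CPM in D2), CA3 (201 to 223 CPM, 394 to 406 CPM), dentate gyrus (201 to 252 CPM, 351 to 597 CPM) and CGE (139.6 to 164 CPM, 240.2 to 243 CPM). Lower in both were 3, those of Lamp5, oligodendrocytes and their precursors. As above, no share of all symbols stands beside these counts of lists. The part of other nuclei in that column was not tested.

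**Figure D3:**
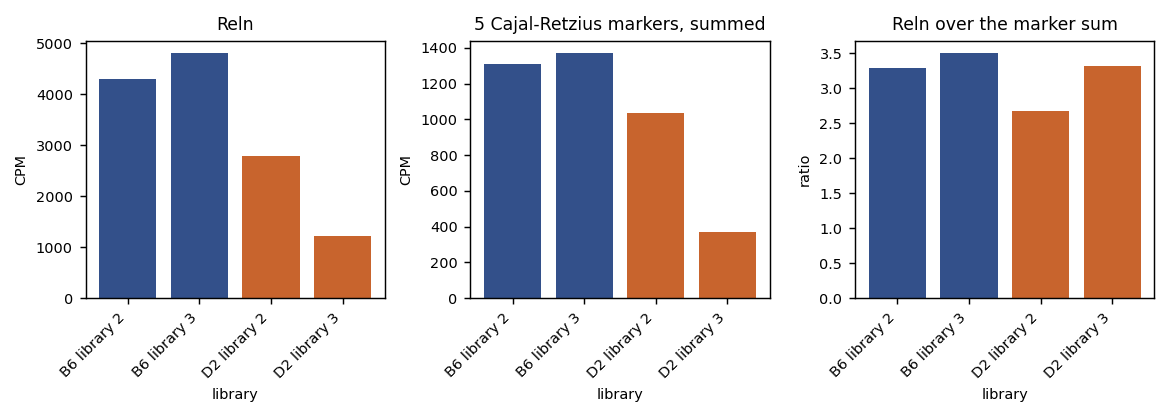
Bars of Reln, of the summed level of 5 Cajal-Retzius marker genes (Trp73, Lhx1, Lhx5, Ebf3, Cacna2d2), both in CPM, and of their ratio, in the CR-CR column of each library. Reln is lower in D2 (2784 and 1226 CPM against 4298 and 4806 CPM in B6) and so is the marker sum, while the ratio lies between 2.68 and 3.51.

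Neither receptor gene was called in any cell type. Vldlr differed by -0.36 to 0.15 over 14 types, with 0 tests at an unadjusted p under 0.05 by edgeR and a lowest adjusted p of 0.27. The interval for oligodendrocytes, where it is highest, was -0.14 to 0.45, and that for Exc-DG was -0.19 to 0.20. Lrp8 differed by -0.38 to 0.23 over 15 types, with 2 tests at an unadjusted p under 0.05. These were Exc-CA1-Fras1, at 40.4 and 53.4 CPM in B6 and 42.2 and 32.2 CPM in D2 (-0.38, edgeR adjusted p = 0.083), and Exc-CA3, at 57.4 and 56.7 CPM in B6 and 50.9 and 46.2 CPM in D2 (-0.25, edgeR adjusted p = 0.090). The former was called under 5 of the alternative settings. DESeq2 called neither gene in any type, and whole-library levels were 32.0, 33.9, 30.4 and 32.8 CPM for Vldlr and 47.4, 51.1, 49.4 and 48.8 CPM for Lrp8.

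Dab1 was modestly lower in D2 across many types. It was called lower in 9 of 17 types and higher in 1, with 14 differences negative and a median of -0.26, beside the 9.25% and 12.9% of all tests given above. The firmest calls were in excitatory neurons. In Exc-Gpc6 the levels were 2568 and 2589 CPM in B6 and 1929 and 1749 CPM in D2 (-0.52, SE 0.09, edgeR adjusted p = 1.09e-05). Exc-ENT had 1766 and 1782 CPM against 1488 and 1376 CPM (-0.36, SE 0.07, edgeR adjusted p = 0.000132). These falls, with those of Exc-CA1-Fras1 (-0.26, edgeR adjusted p = 0.00255) and Exc-CA1-Galntl6 (-0.24, edgeR adjusted p = 0.000281), were called in all 12 alternative settings.

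Smaller or less deeply counted falls of Dab1 were called in Exc-CA3 (-0.23), Exc-DG (-0.17), Inh-Lamp5 (-0.32), NN-ODC (-0.59) and NN-VLMC (-1.03), with edgeR adjusted p between 0.00847 and 0.0414, and each was lost under 2 to 4 of the 12 settings. In NN-VLMC they rested on 50 and 107 counts in B6 and 74 and 22 in D2. In NN-OPC the adaptor was higher in D2, with 507 and 448 CPM in B6 and 541 and 599 CPM in D2 (0.27, SE 0.10, edgeR adjusted p = 0.0488), and this call was made in 5 of 12 settings. Inh-CGE stood at 0.01 (95% interval -0.21 to 0.22) and NN-Astro at -0.11 (-0.29 to 0.07). Over whole libraries Dab1 was 2352 and 2329 CPM in B6 and 2042 and 1960 CPM in D2.

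Whether the strain difference varied among cell types was tested directly. One edgeR fit over all 68 columns, with library and cell type as terms, called an interaction of strain and cell type for 14.6% of 21050 symbols. Reln (adjusted p = 4.08e-09) and Dab1 (adjusted p = 0.00334) were among them, and Lrp8 (0.31) and Vldlr (0.72) were not. Against the mean difference over cell types, Reln stood 1.41 higher on the log2 scale in Inh-Lamp5 (adjusted p = 2.32e-05), 0.98 higher in Inh-CGE (adjusted p = 0.0095) and 0.89 higher in Inh-MGE (adjusted p = 0.0204). The one called departure of Dab1 was NN-OPC, 0.55 higher (adjusted p = 0.0222). Of all such departures, 1.08% of 357850 were called. Without CR-CR the interaction adjusted p was 7.23e-08 for Reln and 0.00728 for Dab1.

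Around the 4 genes, 72 further symbols of the pathway were read from lists of ligands and proteases, receptors, adaptors and kinases, and effectors. Of their 998 tests 51 were called higher and 85 lower in D2, 13.6% together with a median difference near 0, where 22.1% of all tests over the 17 types were called. The latter include symbols counted in 1 strain alone. Among symbols with counts in both strains, from 1.66% (CR-CR) to 26.0% (Exc-CA1-Galntl6) were called, so the share of the pathway is not shown to be low. Of other ligands and of the proteases that cut reelin, 8 of 138 tests were higher and 18 lower. Apoe, an alternative ligand of both receptors, was higher in 3 types, among them NN-MGC (B6 1791 and 1724 CPM, D2 2258 and 2520 CPM, a difference of 0.50), and the reelin-cleaving protease Adamts3 was lower in 3 (-0.98 to -0.47). The convertase Pcsk5 was lower in 5 types and higher in 2. Of the receptor list 3 of 143 tests were higher and 14 lower, and Efnb2, a ligand of Eph receptors, was lower in 9 types (-1.01 to -0.46).

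Of adaptors and kinases other than Dab1, 7 of 189 tests were higher and 1 lower. Dab2ip was higher in 2 types (0.63 and 0.80), the kinase Fyn in 1 (0.50) and Dab2 in 1 (1.02). Of the 34 effectors, 33 of 528 tests were higher and 52 lower. Cdk5, a kinase that acts on neuronal migration in parallel with reelin, was lower in 9 types, most in NN-ODC with 94.1 and 84.1 CPM in B6 against 19.4 and 21.6 CPM in D2 (-2.01). Grin2a, an NMDA receptor subunit, was lower in 10 types (-1.03 to -0.14). The actin-severing protein gene Cfl1 was higher in 9 (0.50 to 0.74). The other calls of the adaptor list, in 1 type each, were Yes1, Src and Nck2 (higher) and Socs6 (lower). The named symbols of the other lists were those called in the most types in 1 direction.

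In open chromatin, 339 peaks lay within 2 kb of the 4 genes: 58 at Reln, 5 at Vldlr, 15 at Lrp8 and 261 at Dab1. CR-CR and NN-VLMC have no column there, so the highest Reln type cannot be set beside its chromatin. The peak over the Reln start, chr5:22343729-22346156, averaged 37.4 CPM in Inh-Lamp5 (34.4 to 39.0 over the libraries), 32.7 CPM in Inh-CGE and 26.6 CPM in Inh-MGE. All their libraries lay above those of the next type, Exc-Cdh12 at 14.7 CPM, and the lowest mean was 5.97 CPM in NN-Astro. Over the Vldlr start, chr19:27216200-27219212, NN-ODC had 99.3 CPM (73.2 to 118.9), ahead of Inh-CGE at 64.7 CPM and of NN-OPC at 61.2 CPM, whose highest library (84.9 CPM) reached into its range. The other Vldlr peaks summed to 40.4 CPM in NN-ODC (28.9 to 55.1) and 14.9 CPM in NN-OPC. The 4 promoter peaks varied by unequal amounts: the highest mean was 9.96 times the lowest for Dab1, 6.27 times for Reln, 4.19 times for Vldlr and 2.10 times for Lrp8, whose peak is chr4:107801415-107804093. For Dab1 and Reln the lowest mean was that of NN-Astro and rested on few reads. Reln had 3 and 4 counts there in B6 and 2 and 3 in D2, and Dab1 ran from 1.54 to 8.23 CPM.

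Over 15 cell types, the promoter peak and the RNA correlated with r = 0.930 (rho = 0.843) for Vldlr, 0.862 (rho = 0.532) for Reln, 0.585 (rho = 0.625) for Dab1 and 0.329 (rho = 0.364) for Lrp8. For Dab1, whose promoter peak is chr4:103618944-103621838, the other 259 peaks inside the gene, summed, followed the RNA more closely than the promoter did (r = 0.944, rho = 0.950). These are descriptions over 15 columns, and the ATAC nuclei were named by transfer of labels from the RNA, so the measures are not independent.

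Strain differences in these peaks were few. Of 3260 tests 36 were called higher and 27 lower in D2, 1.93% together, where 2.73% of all 2706603 peak tests were called, 1.39% higher and 1.33% lower. The promoter peaks of the 4 genes had 0 calls by edgeR in 15 types each, with lowest adjusted p of 0.15 for Reln, 0.60 for Vldlr, 0.48 for Lrp8 and 0.72 for Dab1. Differences were negative in 11 types for Reln, 5 for Vldlr, 4 for Lrp8 and 6 for Dab1. For Reln the unadjusted edgeR p was under 0.05 in Exc-Gpc6 (-0.57), Exc-CA1-Camk2d (-0.46), Exc-ENT (-0.40) and Exc-CA1-Galntl6 (-0.31). The error of the Reln promoter difference ran from SE 0.13 in Exc-DG (difference -0.25) to SE 0.94 in NN-Astro (-1.15) and more in NN-MGC. The 0 calls therefore do not show equal promoters, least of all in the smaller types. At Reln 10 of 510 tests were called, 7 of them lower. The peak at chr5:22306716-22307433 in intron 1, the centre 37.6 kb into the gene, was lower in D2 in all 11 types tested and called in 4. In Exc-CA1-Fras1 it had 12.9 and 12.6 CPM in B6 against 4.88 and 5.45 CPM in D2 (-1.24, edgeR adjusted p = 1.67e-07). In Exc-CA1-Galntl6 it had 9.94 and 11.6 CPM against 5.38 and 3.86 CPM (-1.20, edgeR adjusted p = 9.24e-14), and in Exc-ENT 5.78 and 4.49 CPM against 1.48 and 0.716 CPM (-2.20, edgeR adjusted p = 1.05e-05). Reln RNA was also called lower in those 3 types. The fourth call, in Exc-Cdh12 (-2.61, edgeR adjusted p = 0.0315), rested on 2 and 24 counts in B6 and 2 and 3 in D2 and was lost in 2 of 3 fits without 1 library, and there Reln RNA differed by 0.26 with no call. In Exc-DG, where the RNA fell by 1.43 on the log2 scale, this peak differed by -0.13. The second named Reln peak, chr5:21969171-21969635 over exon 39, was lower in Exc-CA1-Galntl6 (-1.15).

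Dab1 had 51 of 2527 tests called (2.02%, below the 2.73% of all peaks), 31 higher and 20 lower. At chr4:104307714-104308150 in intron 3, 689 kb into the gene, D2 was lower in all 8 types tested and called in 7, from -4.72 in Exc-Gpc6 to -1.76 in Exc-CA1-Fras1. The former rested on 2 and 0 counts in D2 against 16 and 39 in B6 and ran from -7.89 to -3.63 when 1 library was left out, and the call in Exc-Cdh12 was lost without any 1 of the 4 libraries. In Exc-CA1-Galntl6 the levels were 4.06 and 4.29 CPM in B6 against 0.521 and 0.890 CPM in D2 (-2.50, edgeR adjusted p = 1.18e-16). At chr4:103793624-103794338 in intron 1, 175 kb in, D2 was higher in all 11 types tested and called in 6. In Exc-CA3 the levels were 3.38 and 2.96 CPM against 7.25 and 6.07 CPM (1.09, edgeR adjusted p = 1.03e-06), and the difference reached 1.71 in Inh-MGE. The calls in Inh-MGE, Exc-CA1-Fras1 and Exc-CA1-Galntl6 were each lost without any 1 of the 4 libraries, and the other 3 in 2 of those 4 fits. These peaks were named because they were called in the most types, so their number of calls is no further evidence.

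**Figure D4:**
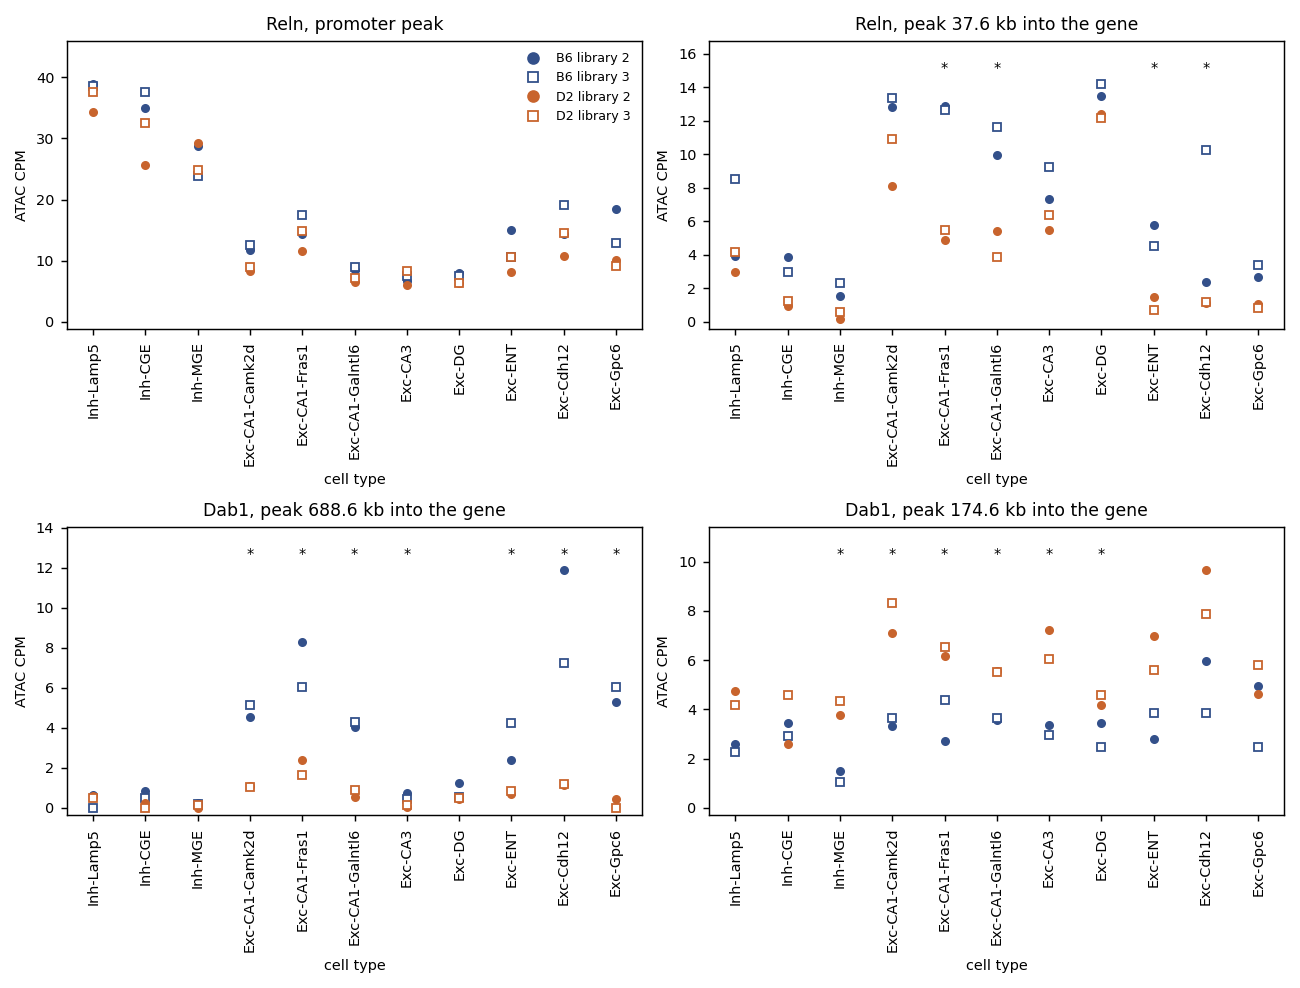
Accessibility in CPM of the Reln promoter peak, the Reln peak 37.6 kb into the gene and the Dab1 peaks 689 kb and 175 kb in, with 1 point per library (colour for strain, shape for library number) in 11 neuronal cell types and an asterisk where the edgeR adjusted p is under 0.05. The Reln promoter is highest in the 3 inhibitory types and has 0 asterisks, the Reln intronic peak has 4 and the Dab1 peaks have 7 (D2 lower) and 6 (D2 higher).

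At the receptors 1 peak each was called, in 1 type each. Lrp8 chr4:107816460-107816731 in intron 2 was higher in D2 in Exc-DG, with 5.22 and 6.24 CPM against 8.28 and 9.56 CPM (0.71, edgeR adjusted p = 1.01e-05). Vldlr chr19:27227164-27227492 in intron 1 was higher in Exc-CA1-Galntl6, with 4 and 6 counts in B6 and 15 and 18 in D2 (1.63, edgeR adjusted p = 0.0318), a call lost without any 1 of the 4 libraries. These types had 0 called differences of Lrp8 or Vldlr RNA.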

How the data were processed

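Nuclei of the ventral hippocampus were profiled by 10x Genomics snRNA-seq and snATAC-seq. Per the labels and the methods, the authors aligned reads with Cell Ranger 6.0.2, introns included, and Cell Ranger ATAC 2.0.0, B6 to mm10 and D2 to an mm10 carrying its SNPs, removed doublets, clustered and named cells with Seurat 4.0.5, transferred the names to ATAC nuclei and merged MACS peaks of all samples. The authors deposited raw counts summed per cell type and library. Methylation samples (16) were not analysed here. Since columns and labels number replicates differently, libraries were placed by strain.

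Strain was tested per cell type by edgeR 4.0.16 (TMM, filterByExpr for genes, at least 10 counts for peaks), with DESeq2 1.42.0 as alternative and Benjamini-Hochberg adjustment at 0.05. Of 33902 symbols, 24691 had counts in both strains, while 8204 had counts in D2 alone (3.55% of its counts) and 960 in B6 alone (0.814%). The separate alignments of the strains can shift single genes and peaks, and their part in the strain differences was not tested. Scripts were tested on simulated data. The named peaks were those called in the most types, the named pathway symbols likewise, and the alike genes those of highest correlation among symbols averaging at least 5 CPM; a few of these and of the excitatory marker list are not reported here. Genes and lists were chosen with earlier results of these data known. Only sums over nuclei were used, so cell barcodes that libraries share were not analysed here.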

Additional observations from a re-analysis of the deposited data

Results flagged for a closer look

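Strain differences that themselves differed among cell types, by the interaction test of edgeR over 17 cell types, were found for Reln (adjusted p = 4.08e-09) and Dab1 (adjusted p = 0.00334). For Reln, the departures from the mean strain difference were 1.41 in Inh-Lamp5, 0.98 in Inh-CGE and 0.89 in Inh-MGE on the log2 scale of D2 over B6. For Dab1 it was 0.55 in NN-OPC. No group had more than 2 libraries, so a search for single libraries far from their group could not be made.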

How the results depend on the processing

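With 19 differences of the 4 genes called, other settings gave 13 (DESeq2) to 23, and leaving out 1 library gave 15 to 19. No difference of the 4 genes called in the main setting changed sign in another. Reln in Exc-CA1-Camk2d, which was not called there, differed by -0.59 without B6 library 2 and by 0.87 without B6 library 3. The 12 settings kept 4 of 9 Reln calls and 4 of 10 Dab1 calls throughout. DESeq2 lost 4 falls of Reln, in Exc-CA1-Galntl6, Exc-Gpc6, NN-MGC and NN-OPC. Counting the 4 genes among the pathway lists, 155 tests were called, 59 by DESeq2 and 96 to 146 without 1 library, the lowest without D2 library 3. The interaction was called for the same 2 genes in each of 10 settings, and the lowest and highest adjusted p without 1 library were 9.44e-25 and 3.74e-05 for Reln and 8.93e-05 and 0.0473 for Dab1. Of the peak tests, 63 were called, against 12 by DESeq2, 35 at an adjusted p under 0.01 and 24 to 34 without 1 library (34 without B6 library 2, 34 without B6 library 3, 28 without D2 library 2, 24 without D2 library 3). The cause of these changes was not tested.

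Replicate numbers did not pair the libraries: deviations of libraries with the same number correlated at -0.158 to 0.0427 over cell types for RNA and -0.0282 to 0.0323 for ATAC. A replicate block gave 19 calls for the 4 genes, 156 for the lists, 2 for the interaction and 64 for the peaks, losing Dab1 in Inh-Lamp5 and adding Lrp8 in Exc-CA1-Fras1. Crossing the numbers, an alternative chosen after seeing the data as was leaving out CR-CR, gave 23 and 177 calls. Where counts are few, as for Reln outside CR-CR and inhibitory neurons and for single peaks in the smaller types, depth limits what could be called.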
